A study of Homo sapiens with 115 samples.

Results

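The cells described here were budding cells of HCT116, a human colorectal cancer line, in its p53+/+ form, and they were compared according to how much CDKN1A they held. Budding cells, stage [B] of the study, are giant radiation-tolerant persister cells picked while they were giving off small daughter cells. Of 28 p53+/+ [B] cells in the series, 26 had a count in at least 10000 genes and were kept. They were grouped by their own CDKN1A level in CPM, the count of a gene per 1000000 counts of that cell: 13 cells with 1500 CPM or more formed the high group and 13 cells under 1500 CPM formed the low group. By the labels, every cell of both groups carried the same genotype, had received 8 Gy and was collected on day 10. The p53+/+ line is a single clone made by homologous recombination, so both groups share 1 clone. Single cells were picked by pipette, their cDNA was amplified over its full length, and no molecular identifiers were used. Because the labels name no culture or dish, each group counts as 1 sample, no test was run between the groups, and differences are given as sizes with the spread over cells.

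CDKN1A encodes p21, which binds and inhibits cyclin-dependent kinases and is the best known transcriptional target of p53. After DNA breaks, stabilised p53 binds response elements near its target genes, and their products halt the cycle, repair DNA, adjust metabolism or start apoptosis. p21 also acts on transcription indirectly: with the kinases inhibited, the DREAM complex, built on the RB relatives p107 and p130, stays on the cell cycle genes homology region (CHR) of G2/M promoters and keeps them low. The results follow the pathway, with the targets of p53 before its regulators, and the cell cycle genes after them.

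The groups overlapped in depth. Total counts spanned 13544332 to 81951140 in high cells and 10033400 to 51138869 in low cells, and genes with a count spanned 12084 to 18379 in high cells and 10519 to 18196 in low cells. All 26 cells held the 8 epithelial markers looked for, among them EPCAM, KRT8 and KRT18. Of the fibroblast, leukocyte and endothelial markers, PTPRC, CD3E, MS4A1, COL1A2 and PDGFRA had no count in any of the cells. The leukocyte list summed to 0 to 120 CPM in high cells and 2.14 to 46.9 CPM in low cells, nearly all of it CD68, a lysosomal protein that many cell types make. CD68 was itself called higher by the 2-fold rule used for all genes, with medians of 20.6 and 8.41 CPM in high and low cells, and its part in the other results was not tested. Titles of the cells start with digits that several cells share, and what these digits stand for is not stated. Cells with the same leading digits are called a name set here. Of 9 sets, H1 to H3 held high cells only (7 cells), L1 to L3 held low cells only (7 cells, of which 4 in L3), and M1, M2 and M3 held both, with 2 against 1, 3 against 3 and 1 against 2 high and low cells. Set and CDKN1A group can therefore be told apart in 12 of the 26 cells only. In M2 the titles of high replicates 17 and 18 also end in LBK and a number, a mark that no other kept cell carries. What it stands for is not stated. The low cell with the least CDKN1A, replicate 28 of set L3, also had the lowest sum over p53 targets, and values without it are given beside the results that rest on it. Its sum, 1900 CPM, was under the lowest of the 8 p53-/- [B] cells, 2695 CPM, and its p53+/+ label was kept. Those 8 cells had a median of 3856 CPM and a highest of 12173 CPM. That highest value was above every kept p53+/+ [B] cell, which reached 11200 CPM. Cells labelled p53-/- in the series also carry the leading digits of sets L3, L1, M3 and H2.

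CDKN1A itself, the value that chose the groups, stood at a lowest, median and highest of 1587, 2024 and 5414 CPM in high cells and 145, 853 and 1383 CPM in low cells. Its summed counts were 1319662 in high cells (95% exact Poisson interval 1317411 to 1321915) and 314573 in low cells (313475 to 315674). Such intervals cover counting error only. Just inside the cut lay high cells at 1587, 1604 and 1716 CPM, and just outside it low cells at 1383, 1130 and 1011 CPM, so the levels ran on across the cut with no wide gap. The 2 cells left out for few genes had 4029 CPM (5911 genes) and 187 CPM (8727 genes). For comparison, CDKN1A had a median of 2435 CPM in 6 pre-budding p53+/+ [P] cells, 641 CPM in 19 newly budded [S] cells, 1145 CPM in 11 repopulated [R] cells and 72.4 CPM in 6 [N] cells, which the study describes as unirradiated. In 8 p53-/- [B] cells, from the matching clone without p53, the median was 210 CPM. The low group thus lay mostly above the [N] cells, whose highest value was 255 CPM, and only its lowest cell fell under that.

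**Figure D1:**
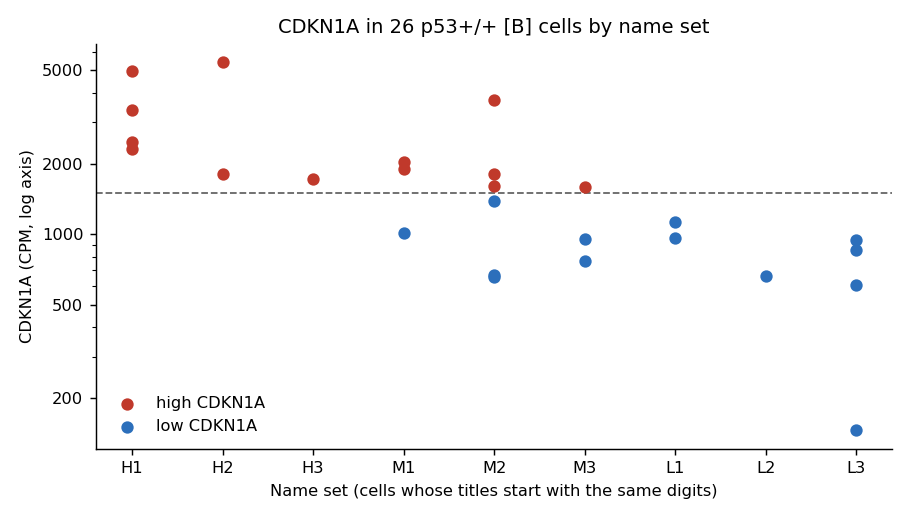
CDKN1A in CPM on a log axis for each of the 26 kept cells by name set, with high cells in red, low cells in blue and the cut of 1500 CPM as a dashed line. Sets H1 to H3 hold high cells only, L1 to L3 low cells only, and M1 to M3 both.

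Over all other genes, 8960 reached a mean of at least 10 CPM in either group. A gene was called when both its group mean and its group median differed at least 2-fold in 1 direction, on CPM + 1, with no cell supplying more than 50% of the higher group's sum. A gene reaching 10 CPM in 1 group alone could be called in that direction only. Of the called genes named below, NECTIN4, PGF, ACER2, CDKN2B, PLAT, JUN, CTSH, BHLHE40, LOXL2 and DEPP1 reached it in high cells alone. CDCA8, TROAP and CAVIN3 reached it in low cells alone. In high cells 243 genes were called higher, which is 2.71% of those tested, and 29 were called lower, which is 0.324%. For none of the 8960 genes (0%) were the groups apart with no overlap. Across all genes tested the median log2 ratio of means was 0.19 and that of medians 0.21, so a small shift towards high cells ran through the whole table, and lists are best read against it. The split of calls depended on this shift. With TMM scaling, which brought the median of all genes to 0.03, 124 genes were called higher and 71 lower, and with median-of-ratios size factors 118 and 76.

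Known targets of p53 had more calls than any other list. Of 55 targets other than CDKN1A, 49 were tested, 15 were called higher and 0 lower, which is 30.6% of those tested against the 2.71% of all genes. Their median log2 ratio of means was 0.73 and of medians 0.61. By means 47 of the 49 were above 0, as against 5866 of the 8960 genes tested. In the plot of the p53 targets called, the group medians lie apart in all 15, as the rule for a call requires, while single cells overlap. Targets and CDKN1A share the regulator by which the list was made, and the members were called in the same cells that the cut was made in, so the counts describe these cells. Of the 15, NECTIN4, PGF and ACER2 passed the level filter through high cells alone, with means of 4.53, 6.44 and 8.66 CPM in low cells. They could not have been called lower.

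ANKRA2, an ankyrin repeat protein and p53 target, was the gene most like CDKN1A. It had 16.5, 51.3 and 109 CPM as lowest, median and highest in high cells and 0.897, 15.2 and 41.9 CPM in low cells, and its summed counts were 26964 (26643 to 27288) and 6262 (6108 to 6419). Every high cell was above the low median and no low cell above the high median. The log2 ratio of means was 1.82, and the rank correlation (Spearman's rho) with CDKN1A over the 26 cells was 0.89, the highest of all genes at 20 CPM or more.

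Targets that restrain the cycle or p53 itself were among those called. PPM1D, the phosphatase WIP1 that switches off p53 and ATM signalling, had 32.5, 95.3 and 188 CPM in high cells and 2.09, 38.4 and 74.8 CPM in low cells, with a log2 ratio of means of 1.46. No low cell reached the high median. CCNG1, cyclin G1, a partner of the phosphatase PP2A in p53 feedback, had 79.2, 335 and 529 CPM in high cells and 11.4, 125 and 355 CPM in low cells (1.20). BTG2, an antiproliferative gene, stood at a median of 125 CPM in high cells and 54.6 CPM in low cells (1.16). PLK2 and PLK3, stress-regulated polo-like kinases, had log2 ratios of means of 1.00 and 1.01, and all 13 high cells were above the low median for PLK2.

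Repair, stress, lipid and death genes were called as well. RRM2B, the ribonucleotide reductase subunit that p53 turns on for repair, had a median of 86.5 CPM in high cells and 33.1 CPM in low cells. SESN1, a sestrin that restrains mTORC1, had medians of 27.2 and 10.6 CPM in high and low cells, and all 13 high cells were above the low median. TP53INP1, a stress-induced nuclear protein of the p53 pathway, had a log2 ratio of means of 1.28. ACER2, an alkaline ceramidase, and FUCA1, a lysosomal fucosidase, followed at 1.58 and 1.01. BBC3, which encodes the BH3-only death protein PUMA, had 11.3, 33.0 and 104.2 CPM in high cells and 4.19, 14.9 and 33.5 CPM in low cells (1.37). RAP2B, a small GTPase, had 81.8, 228 and 584 CPM in high cells and 5.68, 72.4 and 215 CPM in low cells, again with no low cell over the high median. PGF, placental growth factor, had a log2 ratio of means of 1.66.

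NECTIN4, a cell adhesion protein, had the largest ratio of the genes called at 20 CPM or more, 2.95 on the log2 scale of means, and it was uneven among high cells. It was at 25.5 to 160 CPM in 9 high cells and at 0 to 1.74 CPM in the other 4, against 1.01 to 9.61 CPM in low cells. The 4 high cells without it came from sets M1, H3, M2 and M3. Within set M3 its log2 ratio was -2.76, while it was 1.31 within M2 and 3.54 within M1.

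**Figure D2:**
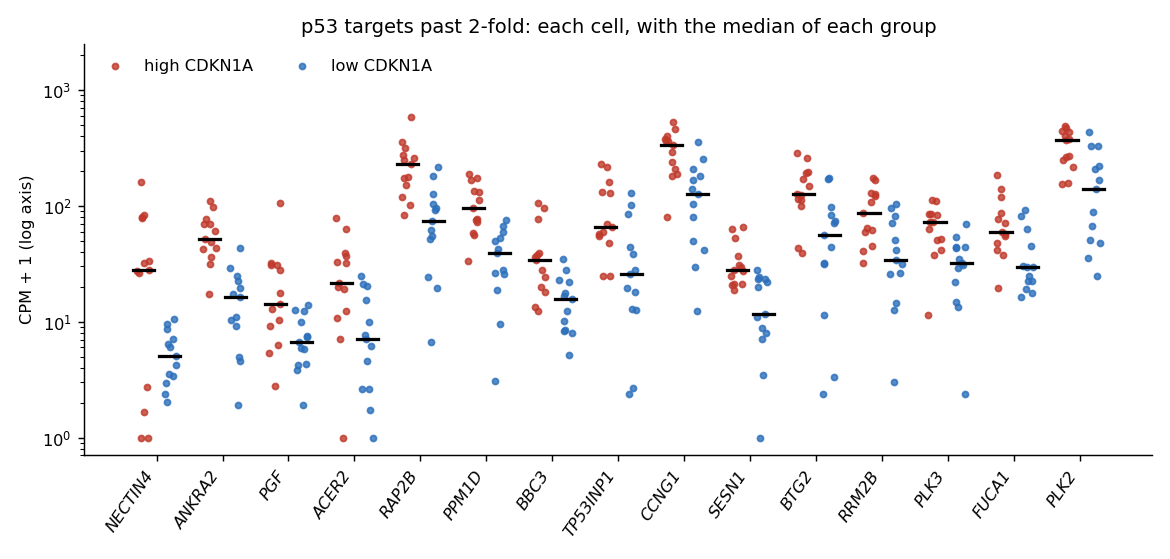
CPM + 1 on a log axis for the 15 p53 targets called higher, 1 point per cell, high cells in red at the left of each gene, low cells in blue at the right, with a black bar at the group median. Medians of high cells are above those of low cells throughout, as the rule for a call requires. NECTIN4 splits the high cells in a large and a small cluster, and the points of both groups overlap for every gene.

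Other p53 targets were not called. MDM2, the ubiquitin ligase that degrades p53, had 20.4, 104.9 and 588 CPM in high cells and 2.99, 67.6 and 159 CPM in low cells, a log2 ratio of means of 0.86, and a rho of 0.22. The lowest rho among the 15 targets called, which were picked by the split on CDKN1A itself, was 0.45. GDF15, a secreted stress cytokine, was abundant in both groups, with medians of 1329 and 1096 CPM. BAX, the apoptosis effector, had medians of 40.5 and 42.1 CPM in high and low cells. RPS27L and SESN2 had log2 ratios of means of 0.11 and -0.27, and PIDD1, a death-domain protein, stood at -0.16 with a rho of -0.42. FAS, the death receptor, had a log2 ratio of means of 1.35 but of medians of 0.73, and so was not called. PMAIP1, which encodes NOXA, had a log2 ratio of medians of 1.20 but of means of 0.82. Of the 13 regulators of p53 tested, which include MDM4, ATR and CHEK2, 0 were called in either direction.

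The summed CPM of the 55 targets gave 1 value per cell. It spanned 5754 to 11200 with a median of 8718 in high cells, and 1900 to 7501 with a median of 5775 in low cells. Of the 13 high cells, 10 were above the highest low cell, and 6 low cells were below the lowest high cell. Its rho with CDKN1A was 0.85 over the 26 cells. Inside the groups, where the cut plays no part, rho was 0.74 among high cells and 0.52 among low cells (n = 13 each). The low cells include the 4 of set L3, and the lowest sums (1900, 2995 and 3838 CPM) were in that set. Outside L3, low cells with the most CDKN1A (1383, 1130 and 1011 CPM) had sums of 5919, 7435 and 6797 CPM. Those with the least (669, 665 and 654 CPM) had sums of 4211, 5514 and 7501 CPM. A rho among low cells without L3 was not computed, so the 0.52 may rest on that set. Over high and low cells together rho was 0.81 without the 4 cells of set L3 and 0.83 without low replicate 28. Of the targets, 44.9% had a rho of at least 0.5 with CDKN1A, as against 9.44% of all genes tested. These correlations are descriptions over cells that share depth, name sets and base composition.

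Newly budded [S] cells of the same clone, which played no part in the choice, were split at the same CDKN1A level, a comparison chosen after the [B] values were seen. Of 19 such cells with enough genes 4 were high and 15 low. All 15 targets called in [B] had a log2 ratio of means above 0 in [S], with BTG2 and FUCA1 also called there. The list median was 0.73 against 0.17 over all genes. With that median above 0, most genes tested shared the sign, but their share was not counted. Of 50 targets tested 8 were called higher and 0 lower, and 5.57% of all genes were called higher. The rho of the target sum with CDKN1A was 0.83 in [S] and 0.88 in 11 [R] cells. It was 0.89 in 6 [N] cells, 0.66 in 6 [P] cells and 0.60 in the 8 p53-/- [B] cells. Over all genes, 47 of the 217 genes called higher in [B] and tested in [S] were called there too, which is 21.7% of the [B] list and 8.99% of the [S] list. Of 28 genes called lower, 13 were shared, which is 46.4% of the [B] list and 3.49% of the [S] list, where 3.96% of all genes were called lower. Name sets and groups were entangled in [S] too: the 4 high cells came from M1 (1 high and 2 low), H2 (2 high and 1 low) and H3 (1 high and 1 low), and the 4, 3 and 2 [S] cells of M2, M3 and L3 were all low. The highest sum in [S], 12509 CPM, was that of a cell in the low group.

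**Figure D3:**
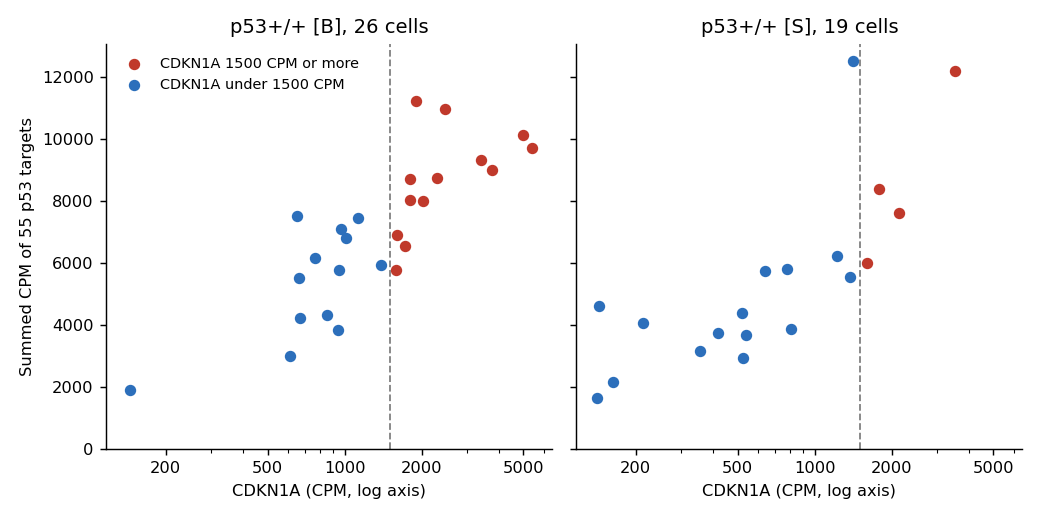
Summed CPM of 55 p53 targets against CDKN1A in CPM on a log axis, 1 point per p53+/+ cell, for [B] at the left and [S] at the right, with cells of 1500 CPM or more in red and those under it in blue. In [B] the high cells lie between 5754 and 11200 and the low cells between 1900 and 7501, and in [S] 1 low cell at 12509 lies above all high cells.

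G2/M genes gave means and medians that pointed apart. Of 44 tested members, 0 were called higher and 1 lower, and the median log2 ratio was -1.01 for group means but 0.10 for group medians. The list sum spanned 576 to 3073 CPM in high cells, with a median of 1161, and 389 to 9022 CPM in low cells, with a median of 1411. Of the low cells, 2, replicate 28 of set L3 at 9022 CPM and replicate 10 of set M1 at 7945 CPM, lay above the highest high cell, the third low cell being at 2894 CPM, and together they held 51.8% of the low group's sum. Without these 2 cells, left out after their values were seen, the list median of means was 0.044, and it was -0.45 without replicate 28 alone. The median over all genes was then 0.32 and 0.27. Relative to it the list stood at -0.28 without the 2 cells and -0.72 without replicate 28. Within the shared sets the list was lower in high cells throughout, with medians of -2.55 within M1, where the low cell is replicate 10, -0.61 within M2 and -2.60 within M3, which holds neither of the 2 cells. In the mean over the 3 sets the median was -2.08 and 0 of 44 members were above 0, as against 4608 of 8960 genes tested. The rho of the list sum with CDKN1A was 0.054 over all 26 cells.

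MKI67, the proliferation antigen Ki-67, showed the same spread. It had 2.31, 16.8 and 89.9 CPM in high cells and 0.399, 36.6 and 758 CPM in low cells, with the low cells spread wider at both ends. TOP2A, the mitotic topoisomerase, had medians of 7.85 and 6.64 CPM in high and low cells but a log2 ratio of means of -1.76, which was -0.064 without replicate 28. For MKI67 that ratio was -1.86, and -0.82 without the same cell. CDK1, the mitotic kinase, had medians of 29.8 and 11.9 CPM but a log2 ratio of means of -0.94, which was -0.77 without replicate 28 and -0.0066 without replicate 10. CCNB1 and CCNA2, the mitotic cyclins, had log2 ratios of means of -0.42 and -1.31 and of medians of 0.50 and 0.13. Without replicate 10 the ratio of means of CCNB1 was 0.18 and that of CCNA2 -0.86.

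CDCA8, which encodes borealin of the chromosomal passenger complex, was the member called, with the lowest ratio of the genes called at 20 CPM or more. It had 0, 3.11 and 23.3 CPM in high cells and 1.32, 16.4 and 81.4 CPM in low cells, a log2 ratio of means of -1.98. Only 1 high cell was above the low median. Summed counts were 2181 (2090 to 2274) in high cells and 7439 (7271 to 7610) in low cells. It was lower in high cells within each shared set, at -1.81 within M2, -3.46 within M3 and -3.93 within M1, and its ratio over the whole groups was -1.66 without replicate 28. TROAP, a microtubule-binding protein of the spindle, was called too (-1.43).

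The CHR was searched for in the promoters of these genes. Its core TTTGAA, searched on both strands in RefSeq windows of 300 bases on GRCh38.p14 (250 before to 50 after the start), was found in 26 of 36 G2/M members with a window (72.2%), as against 15.4% of all promoters and 9.01% of those of genes tested. It was in 3 of 16 windows of genes called lower (18.8%) and in 11 of 188 of genes called higher (5.85%). CDCA8, MKI67 and PLK1 are shown because 1 of them was called and the others not, although each holds the motif, in capitals, first at -23, -47 and -29 bases from its start:
CDCA8 (chr1:37692266-37692565, plus strand): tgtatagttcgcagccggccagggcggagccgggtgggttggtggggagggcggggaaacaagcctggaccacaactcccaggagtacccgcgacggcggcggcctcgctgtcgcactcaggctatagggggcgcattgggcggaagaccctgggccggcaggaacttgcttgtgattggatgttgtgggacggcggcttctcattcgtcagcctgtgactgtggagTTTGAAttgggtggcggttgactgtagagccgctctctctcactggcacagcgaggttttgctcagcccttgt
MKI67 (chr10:128126374-128126673, minus strand): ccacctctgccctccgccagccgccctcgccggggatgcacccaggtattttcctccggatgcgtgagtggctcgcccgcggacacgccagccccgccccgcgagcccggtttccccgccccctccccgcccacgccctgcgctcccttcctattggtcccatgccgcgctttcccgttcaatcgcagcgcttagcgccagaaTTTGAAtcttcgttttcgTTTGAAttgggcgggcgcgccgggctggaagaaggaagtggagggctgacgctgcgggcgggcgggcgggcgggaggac
PLK1 (chr16:23678639-23678938, plus strand): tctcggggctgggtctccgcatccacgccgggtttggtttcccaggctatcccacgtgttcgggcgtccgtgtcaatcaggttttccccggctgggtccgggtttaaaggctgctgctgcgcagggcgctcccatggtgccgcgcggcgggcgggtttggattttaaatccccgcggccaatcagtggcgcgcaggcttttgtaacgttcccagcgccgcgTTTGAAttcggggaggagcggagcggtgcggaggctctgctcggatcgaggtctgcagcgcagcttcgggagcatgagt
A p53 response element, read as 20 bases with both C and both G of its cores kept and up to 2 other mismatches, was in 1 of 40 targets with a window (2.50%) and in 0.271% of all promoters, and in 0 of the 13 windows of targets called. That 1 was AEN, an exonuclease of apoptosis, with a log2 ratio of means of 0.43 that was not called. Its element is in capitals:
AEN (chr15:88621090-88621389, plus strand): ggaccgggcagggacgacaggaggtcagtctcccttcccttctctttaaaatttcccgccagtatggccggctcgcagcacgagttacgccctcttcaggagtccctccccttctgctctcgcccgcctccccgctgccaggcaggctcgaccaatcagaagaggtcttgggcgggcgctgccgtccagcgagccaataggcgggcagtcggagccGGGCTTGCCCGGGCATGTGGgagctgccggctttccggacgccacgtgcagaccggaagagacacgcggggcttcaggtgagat
Such matches describe letters in a short window, and nothing about binding was measured.

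Of 42 replication genes 0 were called in either direction over the whole groups, with a median log2 ratio of -0.40 for means and -0.05 for medians. Within the shared sets their medians were lower, at -1.55 within M1, -0.71 within M2 and -2.25 within M3. In the mean over the 3 sets 1 of 42 was above 0, as against 4608 of 8960 genes tested. PCNA, the replication clamp and itself a p53 target, had 160, 372 and 837 CPM in high cells and 60.3, 244 and 728 CPM in low cells (0.45). Of the other inhibitors of cyclin-dependent kinases, CDKN2B, which encodes p15, was called higher at 1.29, with medians of 8.90 and 1.93 CPM in high and low cells. CDKN1B and CDKN1C, relatives of CDKN1A, were near the floor, with medians of 2.93 and 2.37 CPM for CDKN1B and 0.760 and 0.397 CPM for CDKN1C. CCND1, cyclin D1, had medians of 978 and 1092 CPM in high and low cells, and CCNE1, cyclin E1, had 41.4 and 38.4 CPM.

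The other lists held few calls, to be read against the 2.71% of all genes called higher. Among secreted factors of senescent cells 2 of 15 were called higher and 0 lower. PLAU, the urokinase activator of plasminogen, had 7.29, 246 and 1781 CPM in high cells and 0.80, 48.8 and 417 CPM in low cells (1.96), although it was lower in the high cell of set M3 (-4.90). PLAT, the tissue activator, had medians of 7.70 and 1.70 CPM (1.98) and was higher within all 3 shared sets. The immediate early genes had 2 of 23 called higher, JUN (1.54) and NR4A1 (1.36). The stress response of the endoplasmic reticulum had 3 of 27: DNAJB9, a chaperone partner, HSPA5, the chaperone BiP, and DDIT4, an mTORC1 inhibitor that p53 also turns on. HSPA5 had medians of 653 and 292 CPM in high and low cells. Of interferon-stimulated genes 1 of 31 was called, IFIT5 (1.31), a share of 3.23% that is near the background, while IFIT1 and IFIT2 had log2 ratios of means of 2.28 and 3.68, not called because 1 cell supplied most of the high group's sum. Claudins, cadherin and desmosome had 2 of 17, CLDN4, a tight junction protein (1.72), and CTNNB1, beta-catenin (1.16). In the remaining lists 1 or 2 members were called higher: 2 of 22 glycolysis and hypoxia genes (BNIP3L and P4HA1), 2 of 26 lysosomal genes (CTSH and LIPA), 2 of 29 of ESCRT, the machinery of membrane scission (CHMP7 and VTA1), 1 of 13 hemidesmosome and laminin-332 genes (LAMA3) and 1 of 13 lamina and HMG genes (HMGA1). Sterol and fatty acid synthesis with 1 of 23 (SQLE) and chaperones with 1 of 21 (DNAJB4) were near the background. BNIP3L, a mitophagy receptor, had 51.7, 88.03 and 148 CPM in high cells and 14.3, 38.5 and 78.4 CPM in low cells, with a rho of 0.83. CHMP7 was higher within all 3 shared sets. Among NRF2 targets, the BCL2 family, keratins, metallothioneins with iron genes, and homologous recombination genes 0 were called in either direction.

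**Figure D4:**
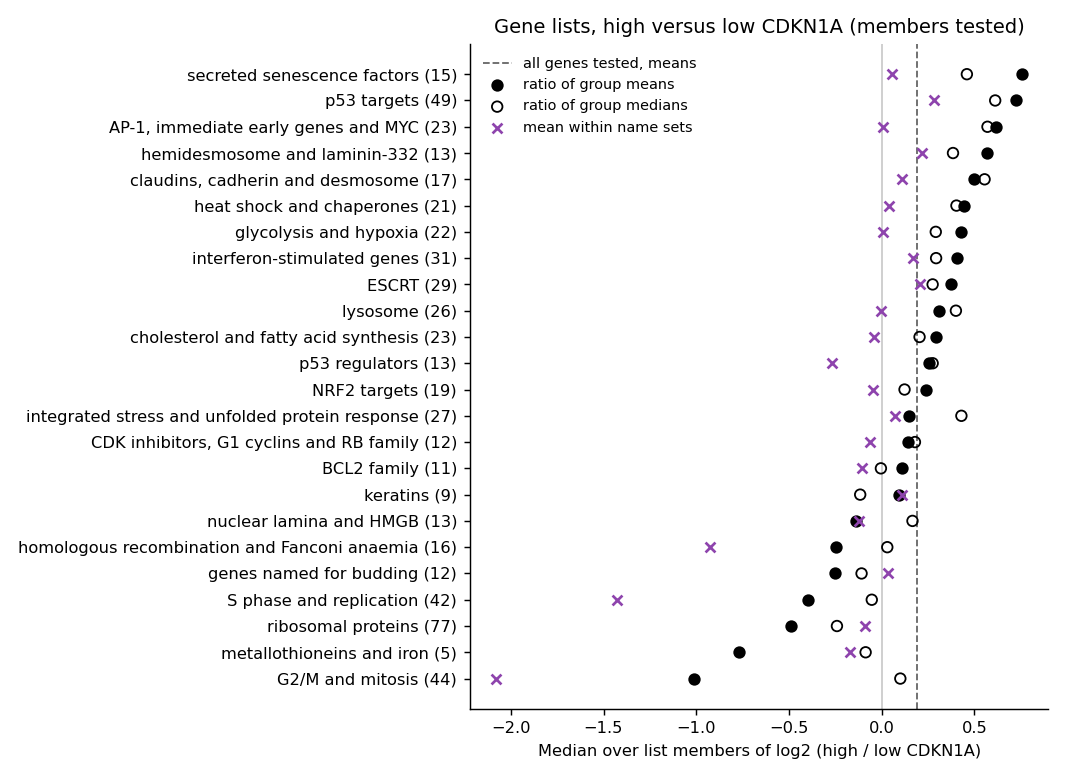
Median over the tested members of each list of the log2 ratio of high to low cells, as filled points for group means, open points for group medians and crosses for the mean of the differences within the 3 shared name sets, with the number tested in brackets. The dashed line is the median of all genes for means, 0.19, with p53 targets at 0.73 and G2/M at -1.01 by means and 0.10 by medians.

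Outside the lists the largest ratios among genes at 20 CPM or more were found for BHLHE40, a stress and clock repressor (2.52), CCN1, a matricellular protein (2.15), LOXL2, a lysyl oxidase of the matrix (1.97), DEPP1, a FOXO target (1.95), BCL10, an activator of NF-kappaB (1.88), FAM84B (1.73) and ID3, an inhibitor of basic helix-loop-helix factors (1.66). BHLHE40 was at 0, 25.2 and 229 CPM in high cells and 1.40, 8.39 and 17.02 CPM in low cells. After ANKRA2 the highest rho with CDKN1A belonged to SERPINB5, the serpin maspin and a p53-responsive gene (0.84), PDCD4, an inhibitor of translation initiation (0.84), BNIP3L (0.83), RBM18 (0.83) and VPS26A, a retromer subunit (0.81). PDCD4 had 47.7, 104.1 and 221 CPM in high cells and 3.09, 26.1 and 100.6 CPM in low cells, and no low cell was above the high median. Of 12 genes the study names for budding, 0 were called higher and 1 lower, RN7SL2. CST3, cystatin C, had medians of 1041 and 842 CPM in high and low cells, and SNCG, gamma-synuclein, had medians of 95.6 and 56.1 CPM with a log2 ratio of means of 1.02 and was not called.

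Genes lower in high cells were few. RN7SL2, a copy of the 7SL RNA of the signal recognition particle, had 0.126, 694 and 4781 CPM in high cells and 128, 1614 and 8398 CPM in low cells (-1.58), and RN7SL3 followed (-1.39). The 18S rRNA entries RNA18SN1, RNA18SN3 and RNA18SN4 were called as well (-1.62, -1.29 and -1.27). Copies of 7SL and of 18S are near identical, so how reads were shared among them is uncertain. RN7SL2 was lower within set M2 (-2.92) but higher within M3 (1.31) and M1 (2.04). ENDOG, a mitochondrial nuclease, had 0, 15.7 and 60.2 CPM in high cells and 19.5, 47.7 and 91.9 CPM in low cells (-1.42), with a rho of -0.79. CAVIN3, a caveolar protein, had 3.803, 8.23 and 15.5 CPM in high cells and 9.90, 19.8 and 54.3 CPM in low cells, and no high cell was above the low median. TMEM238 (-1.78), PRPF19, a splicing factor (-1.35), and ZMYND19 (-1.33) complete the 12 lowest. The lowest rho was that of GFER, a sulfhydryl oxidase of mitochondria (-0.82), followed after ENDOG by DNLZ, a chaperone of mitochondrial HSP70 (-0.70), BCS1L, an assembly factor of complex III (-0.70), PPIH, a spliceosomal cyclophilin (-0.68) and PGP, a phosphoglycolate phosphatase (-0.68). Ribosomal proteins were 0 of 77 called, with a median log2 ratio of means of -0.49. That value was -0.15 without set L3, and the sign turned between sets, with medians of 0.95 within M1 (77 of 77 above 0), -0.42 within M2 (6 of 77) and -0.72 within M3 (1 of 77). Of all 8960 genes tested, 4088, 5163 and 4463 were above 0 within M1, M2 and M3.

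Base composition moved with these lists. The median GC content of the canonical transcript was 42.4% for genes called higher (237 of 243 with a value), 61.6% for genes called lower (25 of 29) and 47.6% for all genes tested (96.3% with a value). The median log2 ratio of means was 0.41 in the fifth of genes poorest in GC, with 89 called higher and 2 lower, and -0.08 in the fifth richest in GC, with 19 higher and 17 lower. A per-cell tilt, the median deviation of the GC-rich genes minus that of the GC-poor genes in log2 units, spanned -1.69 to 0.41 with a median of -0.25 in high cells and -1.38 to 2.04 with a median of 0.03 in low cells. The 3 cells highest in this tilt were low cells of set L3. The 15 p53 targets called had a median GC of 45.8%. With log2 ratios centred within bins of GC content, 70 genes were called higher and 30 lower, and p53 targets kept a median of 0.57 with 8 called. The part of base composition in the other calls was not tested.

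**Figure D5:**
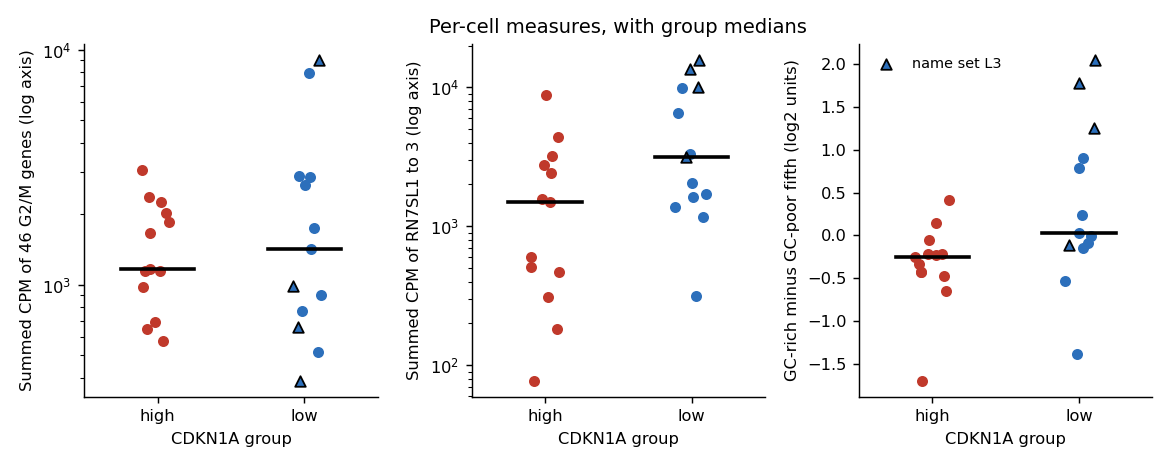
The summed CPM of 46 G2/M genes (log axis), the summed CPM of 3 7SL entries (log axis) and the per-cell GC tilt in log2 units, 1 point per cell with a bar at the group median, high cells left and low cells right, with triangles for set L3. Only 2 low cells lie far above the rest in the G2/M panel, and cells of set L3 take the upper end of the 7SL and GC panels.

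The counts of genes called moved with the name set. Averaged within sets M1, M2 and M3, 40 of 49 p53 targets were above 0, as against 4608 of 8960 genes tested. Their median log2 ratio was 0.28, as against 0.01 for all genes. It was 0.55 within M2, 0.61 within M1 and -0.14 within M3, where 1 high cell met 2 low cells. PPM1D and ANKRA2 were higher within all 3 sets, at 1.16, 1.40 and 0.50 for PPM1D and at 1.31, 0.31 and 0.63 for ANKRA2, in the order M2, M3 and M1. RAP2B was higher within M2 (1.04) and M1 (0.26) and not within M3 (-0.19). Without the 4 cells of set L3 the genes called higher were 82, of which 6 were p53 targets, and the target median was 0.52. The sign turned within sets for PLAU (-1.20), JUN (-0.49), DDIT4 (-0.75), P4HA1 (-0.30), CLDN4 (-0.25), HMGA1 (-0.070), ID3 (-0.44) and RN7SL2 (0.14), as means over the 3. By that measure 139 genes were called higher and 296 lower, with 1 p53 target among them. Single cells also moved the counts: 145 genes were called higher without low replicate 25 and 150 without low replicate 27, both of set L3 and with 9 p53 targets each, and 416 without low replicate 10. Without low replicate 28, 275 were called higher and 21 lower, with 11 p53 targets. With every cell thinned to 10033400 counts, 237 genes were called higher and 26 lower, with 15 p53 targets among them.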

How the data were processed

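Single HCT116 cells were amplified to full-length cDNA and sequenced. The submitters' processing notes name fastp for trimming, HISAT2 2.0 for alignment and GRCh38 as the human build. The authors deposited a table of raw counts per gene and cell, with 43386 entries, and the study's methods name StringTie for estimating expression without saying which tool wrote the counts. Counts were divided by the total of each cell and multiplied by 1000000 (CPM). Cells with at least 10000 genes were split at a CDKN1A level of 1500 CPM. Group means and medians of CPM, each cell weighted alike, were compared as log2 ratios with a pseudocount of 1 CPM, and the procedure was tested on simulated data. That simulation drew each gene independently and held no name sets, GC tilt or shift of all genes, so it checked the calculation only. No pair of these cells correlated above 0.980 on log2(CPM + 1) over all entries, and none was taken as a copy.

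Members, lists and rules were chosen with earlier results of these data known. Named genes were CDKN1A and 15 fixed genes, up to 6 called members of each of 25 lists and of the marker lists with the largest ratios, the 12 highest and 12 lowest called genes at 20 CPM or more, and the 6 highest and 6 lowest rho values at 20 CPM or more. Uncalled list members given in the text (such as FAS, BAX, PIDD1, IFIT2, AEN and PLK1) were chosen after their values were seen. Of the fixed genes, 1 is not reported here. Genes of the mitochondrial genome were not matched by name and not analysed here. The labels give 8 Gy for [N] cells too. Base composition used GENCODE 44 transcripts and promoters came from RefSeq. Analyses used Python 3.11.15, pandas 2.3.3, scipy 1.17.1, matplotlib 3.10.9, and edgeR 4.0.16 and DESeq2 1.42.0 in R 4.3.3 for scaling factors only. Alternatives were other scalings, level filters, pseudocounts, CDKN1A cuts and depths, all 28 cells, differences within sets, and leaving out cells or sets.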

Additional observations from a re-analysis of the deposited data

Results flagged for a closer look

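CDKN1A stood at 2146 CPM in 1 of 8 p53-/- [B] cells, against 358 CPM in the next highest of them, a gap of 0.847 of the group's range. That cell was also above the other 7 in CCNG1 (777 CPM, against 26.4 to 166), PHLDA3 (489 CPM, against 1.26 to 88.9), PPM1D (110 CPM, against 3.23 to 37.9) and BTG2 (168 CPM, against 1.33 to 35.2). Its sum over the 55 p53 targets was 12173 CPM, against 4333 CPM in the next highest of them. The cell was inside their range in MDM2 (86.6 CPM, against 22.1 to 98.7) and GDF15 (230 CPM, against 9.63 to 281). Such gaps were looked for in 6 sets of 4 to 10 cells, with the 95% critical value of Dixon's test as a screen. For independent values, chance takes about 1 in 20 such sets past it. Cells of a set may share a dish, so that rate need not hold here.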

How the results depend on the processing

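No paired analysis was possible because replicate numbers only follow accession order and no test was run between the groups, and differences within name sets are given as values. Ribosomal proteins had a median of -0.15 without L3 and -0.087 within sets. The median of the p53 targets stayed above 0 and above that of all genes in each alternative, between 0.28 within sets and 0.91 with the CDKN1A cut at 1000 CPM. The number of genes called did not. Against 243 higher and 29 lower, with 15 p53 targets, there were 124, 71 and 7 with TMM factors, 118, 76 and 9 with median-of-ratios factors, 147, 118 and 7 with the cut at 2000 CPM, 139, 296 and 1 within sets, and 48, 9 and 7 with a pseudocount of 10 CPM. Added after seeing the data, centring on the median of all genes gave 82, 62 and 8, and centring within bins of GC content 70 higher and 8 targets. Summed counts gave 7 targets. Higher and lower genes were 92 and 11 at a minimum of 50 CPM and 381 and 83 by means alone, and 46 were lower with no filter. Genes higher were 668 with the cut at 1000 CPM, 408 without set M1, 389 without M3, 82 without L3 (6 targets) and 499 without the 2 low cells highest in G2/M genes. Genes lower were 47 without set L1 and 45 without H2. The G2/M median was 0.044 without those 2 cells, against 0.32 over all genes. The S phase median was 0.16 with the cut at 2000 CPM, against 0.07 over all genes. Leaving out each of 26 cells gave 145 to 416 higher, 20 to 35 lower, 9 to 16 targets and list medians of 0.67 to 0.80 (p53), -1.16 to -0.45 (G2/M), -0.75 to -0.08 (S phase) and -0.56 to -0.36 (ribosomal proteins). Within sets the sign changed for PLAU (-1.20), JUN (-0.49), DDIT4 (-0.75), P4HA1 (-0.30), CLDN4 (-0.25), HMGA1 (-0.070), ID3 (-0.44) and RN7SL2 (0.14). The causes were not tested. With no culture named and no molecular identifiers, the spread is that between cells of unknown dishes.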
